A study of Rattus norvegicus with 24 samples.

Results

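The genes described here are 65 rat genes with a higher mean level at the labelled 3 d than at 6 h, and at 10 d than at 24 h, in both PC12 lines of the series. They were chosen from CPM, the counts of a gene scaled to the total count on genes in its library. A gene was a member where log2 of the later group mean plus 0.5 CPM over the earlier group mean plus 0.5 CPM was at least 0.25 in each of these 4 comparisons. A mean of at least 5 CPM over all 24 libraries was also required. Kcnh1 and G0s2 also met both conditions and were left out of the set by its definition. The tables list 17055 genes, of which 8751 had a mean of at least 5 CPM, and the 65 members make up 0.743% of these. Since those 4 comparisons chose the members, their values are given below as a description with no test.

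PC12 is a cell line from a rat pheochromocytoma, a tumor of adrenal chromaffin cells. Per the labels, a control line holds pCDNA3 vector without insert, and a second line stably expresses human α1ACT, a transcription factor made from the same messenger RNA as a calcium channel subunit. Total RNA of both lines was sequenced at 4 labelled times, 6 h, 24 h, 3 d and 10 d, and each of the 8 groups holds 3 replicates labelled as biological. All groups shared passages 18 to 20, the F-12K medium with horse and fetal bovine serum, and no treatment. The sources used here do not say whether a line was 1 clone or a pool, or what event the times count from.

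The names of the deposited files put 18 of the 24 libraries at another time than the labels, and 12 of these also in the other line. All groups below are those of the labels. By the file names, the 4 comparisons that chose the members are instead the line called Q11 against the line called P at 6 h, 24 h, 3 d and 10 d. Which naming is right was not tested. No row of the tables holds the human α1ACT construct, and rat Cacna1a, counted at 10.1 to 20.9 CPM, does not check which line a library came from.

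Depth on genes ran from 8679560 to 14486248 counts per library, so 3 counts stood at 0.207 to 0.346 CPM. Reads outside genes made up 47.8% to 52.9% of the reads, with group means from 48.7% in the vector line at 6 h to 52.5% in the α1ACT line at 10 d. Of 13 chromaffin markers in the tables, 11 had a mean of at least 5 CPM, and their sum was 25187 to 36100 CPM. Summed endothelial and immune markers reached at most 4.56 and 3.94 CPM, with Kdr, Ptprc and Aif1 at 0. The fibroblast sum, 627 to 889 CPM, was nearly all Thy1 (626 to 886 CPM, with Col1a2 and Pdgfrb at 0), and the Schwann or glial sum, 44.7 to 61.2 CPM, was mostly Mbp, with Sox10 at 0. The epithelial sum, led by Krt8 and Epcam, was 565 to 1862 CPM. In the vector line it stood at 1561 to 1862 CPM at 6 h and 1360 to 1787 CPM at 3 d, but at 565 to 580 CPM at 24 h and 578 to 592 CPM at 10 d. In the α1ACT line it stood at 1033 to 1175 CPM at 6 h, 1033 to 1269 CPM at 3 d, 740 to 759 CPM at 24 h and 773 to 825 CPM at 10 d. The chromaffin sum was 32345 to 36100 CPM at 24 h and 34306 to 35384 CPM at 10 d in the α1ACT line, above all other groups, where it was at most 31567 CPM. Both sums therefore moved with the line and time contrasts below, and their part in those results was not tested. No member belongs to any of the 6 marker lists. Replicates 1 and 3 were the closest pair in all 8 groups, so replicate 2 stood apart from them. Without the replicate 2 libraries, a setting chosen after seeing the data, 68 genes met the rule for members, 50 of them among the 65.

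Several members belong to families that PC12 cells and sympathetic neurons are known for. Gfra1 and Gfra2 are receptors tethered to the outer membrane that bind ligands of the glial cell line-derived neurotrophic factor family and signal through the receptor tyrosine kinase Ret. Ephrins, cadherins, protocadherins and L1-type molecules mediate contact between neurons and steer growing axons. A separate group acts on sulfur: Cth makes cysteine and hydrogen sulfide, Sqrdl oxidizes hydrogen sulfide in mitochondria, and Papss2 makes the activated sulfate that sulfotransferases use.

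Promoters are shown for Sqrdl and Papss2, the third and the fourth member in the order below and the first in it with an entry in the RefSeq promoter table of build GRCr8. Each runs from 250 bases before to 50 bases after the annotated start, and both genes lie on the plus strand. The Sqrdl promoter (listed under the current symbol Sqor, chr3:130299981-130300280) has 46.3% G and C and 1 CpG. In it, capitals mark a TTATAA match, a CCAAT box on the minus strand and an AP-1 match.
Sqrdl: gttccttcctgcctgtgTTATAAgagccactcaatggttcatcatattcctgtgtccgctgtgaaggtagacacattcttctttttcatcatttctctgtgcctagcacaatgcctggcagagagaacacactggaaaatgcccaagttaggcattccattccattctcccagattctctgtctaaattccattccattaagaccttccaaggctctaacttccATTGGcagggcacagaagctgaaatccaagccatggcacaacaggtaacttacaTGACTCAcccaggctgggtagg
The Papss2 promoter (chr1:239867463-239867762) has 70.3% G and C and 27 CpG. Its capitals mark 2 GC boxes, 1 on each strand, and a TATA box on the minus strand.
Papss2: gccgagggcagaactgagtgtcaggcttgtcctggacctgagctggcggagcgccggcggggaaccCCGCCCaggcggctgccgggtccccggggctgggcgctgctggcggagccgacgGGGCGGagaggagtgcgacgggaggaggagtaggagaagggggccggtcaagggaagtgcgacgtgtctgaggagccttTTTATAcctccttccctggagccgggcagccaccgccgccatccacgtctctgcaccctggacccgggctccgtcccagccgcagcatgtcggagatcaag

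All 65 members matched the reference, 2 of them by synonym (Sqrdl as Sqor and Dbc1 as Brinp1), and 41 have a promoter entry. Both strands were searched for each motif. The GC box (GGGCGG) was in 61.0% of the 41 promoters and in 66.8% of the 6871 promoters of genes of at least 5 CPM. The CCAAT box (CCAAT) was in 39.0% against 38.2%, the E-box (CACGTG) in 9.76% against 10.6% and the AP-1 motif (TGANTCA) in 4.88% against 4.47%. The TATA box (TATAAA) was in 12.2% against 5.56%, and the AT-rich TTATAA, which can overlap it, in 12.2% against 2.11%. Each of these counts was 5 of 41, and Nsg2, Cp and Pcdhb10 were in both. The letters of the cAMP response element (TGACGTCA) and of the TEAD motif (ACATTCC) were in none of the 41 windows, against 3.54% and 2.28%. Median G and C content was 63.0% in the members and 61.7% in genes of at least 5 CPM. These matches are letters in a window and were not tested as binding sites.

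Across the members, the median log2 difference was 0.54 for vector 3 d over 6 h, 0.43 for α1ACT 3 d over 6 h, 0.51 for vector 10 d over 24 h and 0.41 for α1ACT 10 d over 24 h. Of all 8751 genes of at least 5 CPM, 3.70%, 2.91%, 6.06% and 4.59% reached 0.25 in these comparisons, and 67 reached it in all 4, the left-out pair included. By the mirrored condition, 26 genes were lower in all 4. The 3 libraries of the later group all lay above the 3 of the earlier group for 49, 50, 54 and 53 members, where the shares of all genes of at least 5 CPM were 9.37%, 8.26%, 12.5% and 9.45%. For 31 members the groups were apart in all 4 comparisons, for 22 in 3, for 5 in 2, for 6 in 1 and for 1, Vldlr, in none. Within a single replicate number, all 4 differences were above 0 in 62, 61 and 61 members for numbers 1, 2 and 3, and all 4 reached 0.25 in 40, 26 and 37. These are the same values that chose the members. For the counts of members apart in several comparisons, no share over all genes is given. In these bulk libraries, fewer cells that express a gene and less of its RNA per cell cannot be told apart.

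**Figure D1:**
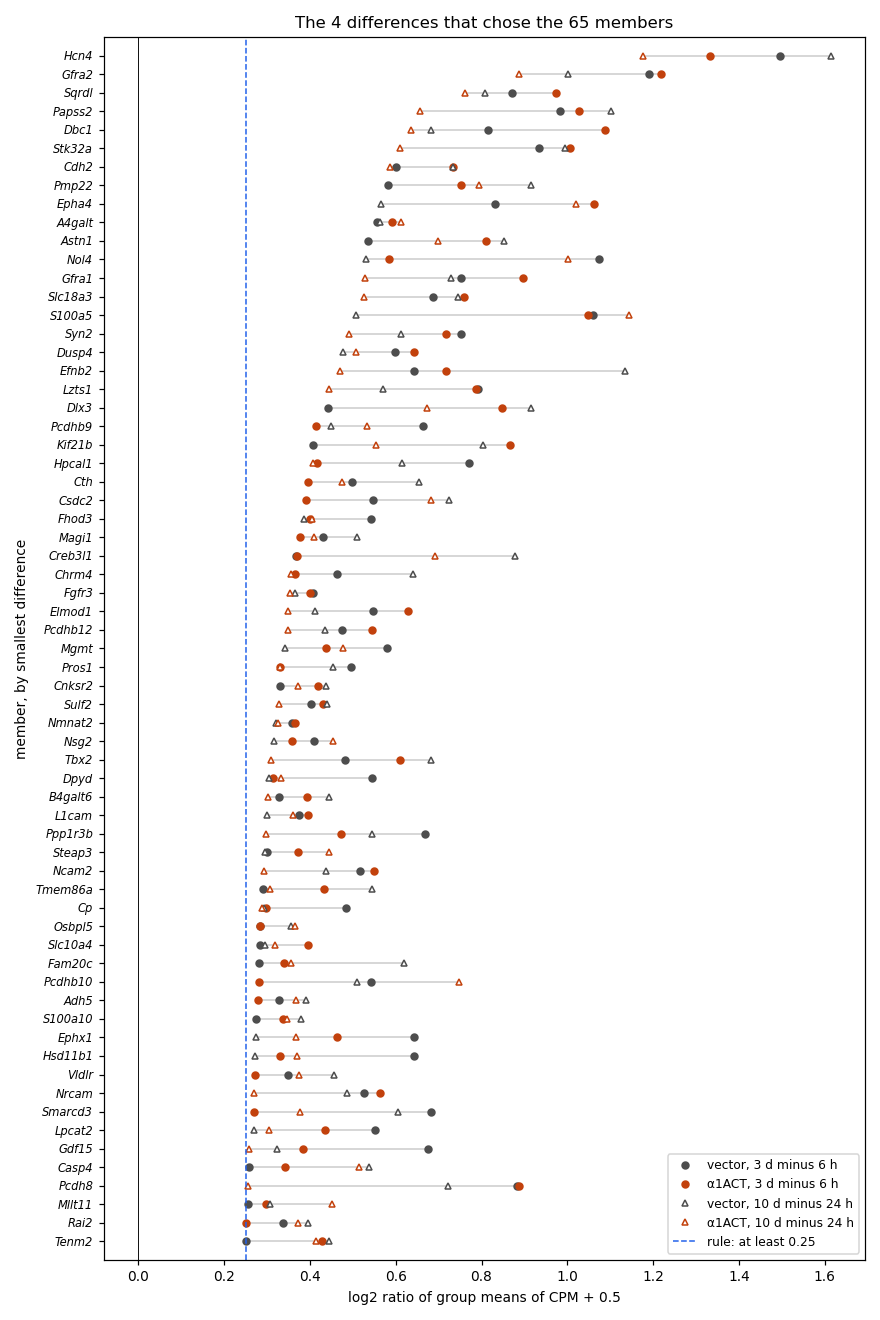
The 4 log2 differences of each member (x axis, log2 ratio of group means of CPM plus 0.5), with members ordered by the smallest of them from top to bottom; circles are 3 d over 6 h, triangles 10 d over 24 h, grey the vector line and orange the α1ACT line, and the dashed line is 0.25. Hcn4 stands at 1.18 to 1.61, and the last member, Tenm2, starts at 0.25.

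Ordered by the smallest of the 4 differences, the members began with Hcn4, Gfra2, Sqrdl, Papss2, Dbc1, Stk32a, Cdh2, Pmp22, Epha4, A4galt, Astn1 and Nol4. Hcn4, a channel opened by hyperpolarization and cyclic nucleotides that carries pacemaker current, had the largest difference in all 4 comparisons. Its level at 6 h was 0.969, 0.768 and 1.38 CPM for vector and 2.52, 3.20 and 2.50 CPM for α1ACT. At 3 d it was 3.52, 3.70 and 4.32 CPM for vector and 8.41, 6.12 and 8.43 CPM for α1ACT. Hcn4 stood at 4.87, 5.60 and 5.11 CPM at 24 h and 16.4, 17.9 and 16.5 CPM at 10 d in the vector line, and at 3.63, 3.07 and 3.10 CPM and 8.17, 8.37 and 7.49 CPM in the α1ACT line. The later group lay above the earlier one in every pair, with log2 differences of 1.5, 1.33, 1.61 and 1.18. The order of the lines was not fixed: α1ACT lay above vector at 6 h and 3 d and below it at 24 h and 10 d, with no overlap at any of the 4 times.

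**Figure D2:**
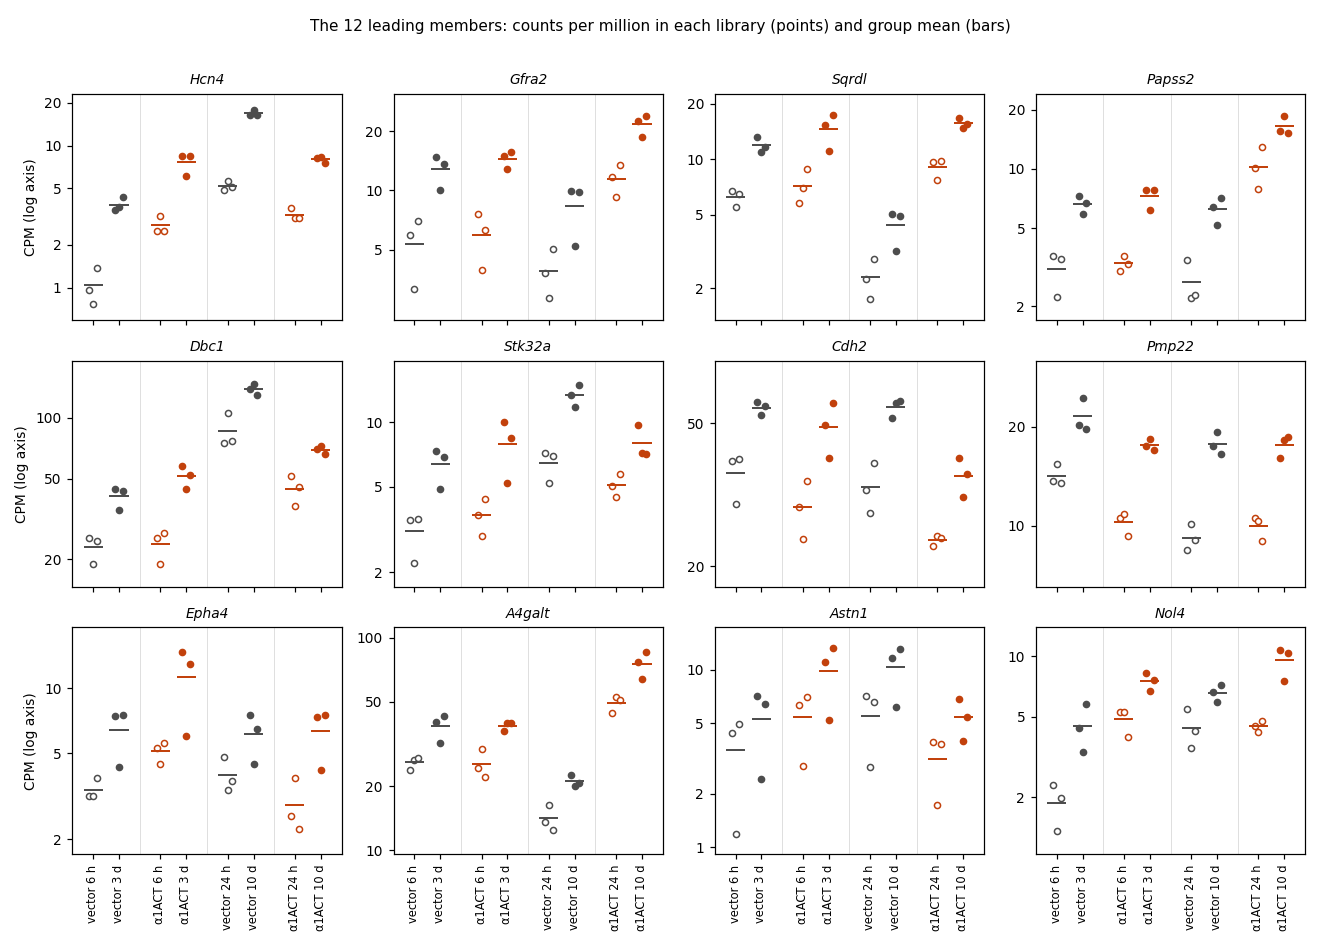
CPM (log axis) of the 12 members with the largest smallest difference in each of the 24 libraries; points are libraries, open at 6 h and 24 h and filled at 3 d and 10 d, grey for vector and orange for α1ACT, and bars are group means. Hcn4 goes from a group mean of 1.04 CPM at vector 6 h to 16.9 CPM at vector 10 d, and the points of Astn1 overlap in most pairs.

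Of 15 neurotrophic receptor and signalling genes with at least 5 CPM, 3 were members: Gfra2, Gfra1 and Fgfr3, a fibroblast growth factor receptor. Gfra2, which binds neurturin best, had 5.90, 3.16 and 7.02 CPM at 6 h for vector and 14.8, 10.1 and 13.7 CPM at 3 d, then 3.82, 2.85 and 5.04 CPM at 24 h and 9.97, 5.20 and 9.79 CPM at 10 d. In the α1ACT line it had 7.57, 3.95 and 6.29 CPM at 6 h, 14.9, 12.8 and 15.7 CPM at 3 d, 11.7, 9.30 and 13.4 CPM at 24 h and 22.4, 18.7 and 23.8 CPM at 10 d. Its 2 lines overlapped at 6 h and 3 d and were apart at 24 h and 10 d, where α1ACT was higher. Gfra1, which binds the founding ligand of the family, had group means of 7.34 and 12.7 CPM at vector 6 h and 3 d, 10.5 and 19.9 CPM at α1ACT 6 h and 3 d, 6.23 and 10.6 CPM at vector 24 h and 10 d, and 13.1 and 19.2 CPM at α1ACT 24 h and 10 d. Fgfr3 differed by less, 0.35 to 0.41 on the log2 scale.

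The partners of these receptors were looked up after the members were known. Ret, their signalling subunit, had log2 differences of -0.10, -0.06, -0.23 and -0.04 in the same 4 comparisons. Gdnf had 0 counts in all 24 libraries, each of which allows up to 3 counts, and Gfra4 had 5 counts in all of them together. Nrtn, the gene of neurturin, was at 0.922 to 3.84 CPM, Artn at 0.176 to 1.48 CPM and Pspn at 0.886 to 3.26 CPM. Gfra3, also looked up, had group means of 10.7 and 10.3 CPM at vector 24 h and 10 d and of at most 1.18 CPM elsewhere. The log2 differences of Gfra3 were -0.43, -0.24, -0.05 and -0.36. Only the third, vector 10 d over 24 h, was of levels above 1.18 CPM, so no direction is read against Gfra1 and Gfra2. None of the 4 Ret differences reached 0.25 in size.

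Of 29 axon guidance and adhesion genes with at least 5 CPM, Epha4, Efnb2, L1cam and Nrcam were members, and Sema6d and Plxna2 met the condition in 3 of the 4 comparisons. Epha4, an ephrin receptor that mediates repulsion of axons, had group means from 2.88 CPM at α1ACT 24 h to 11.2 CPM at α1ACT 3 d. Efnb2, a membrane-bound ephrin, had 14.5, 20.4 and 16.2 CPM at vector 24 h and 33.2, 48.4 and 32.4 CPM at vector 10 d, its largest difference (1.14 on the log2 scale). L1cam, an adhesion molecule of growing axons, differed by 0.30 to 0.40 and was apart in all 4 pairs. Ntn1, the secreted guidance cue netrin-1, went the other way, with differences of -1.01, -0.75, -0.97 and -0.97.

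Cadherins and protocadherins, adhesion molecules that bind copies of themselves on the next cell, supplied 5 of their 15 genes with at least 5 CPM: Cdh2, Pcdhb9, Pcdhb10, Pcdhb12 and Pcdh8. Cdh2, or N-cadherin, had 39.4, 29.8 and 39.8 CPM at vector 6 h and 57.2, 52.7 and 56.0 CPM at vector 3 d. In the α1ACT line it had 22.8, 24.3 and 23.9 CPM at 24 h and 39.9, 31.3 and 36.1 CPM at 10 d, and its groups were apart in all 4 pairs. Pcdhb8 and Pcdhga10 met the condition in 3 comparisons, while Pcdhac2 was lower by it in all 4. On the reference genome Pcdhb9 and Pcdhb10 are adjacent and 1 protein-coding gene lies between Pcdhb10 and Pcdhb12. These genes are close copies, and reads could be split or lost among them. Pcdhb9 and Pcdhb10 were apart in only 1 of the 4 pairs each, and Pcdhb12 in 2.

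Other members at the cell surface were Ncam2 and Tenm2, adhesion proteins of neurons, Astn1, which serves the migration of neurons on glia, Magi1, a junction scaffold, Vldlr, a receptor for lipoproteins and reelin, and Pmp22, a membrane protein of myelin. Pmp22 had 8.46, 10.1 and 9.04 CPM at vector 24 h and 17.5, 19.3 and 16.5 CPM at vector 10 d, and 10.5, 10.4 and 8.98 CPM at α1ACT 24 h and 16.0, 18.2 and 18.7 CPM at α1ACT 10 d. Its pairs of groups were all apart. For Astn1, replicate 2 was the lowest of the 3 libraries in 8 of 8 groups, for example 4.40, 1.19 and 4.94 CPM at vector 6 h, and its groups were apart in 1 pair.

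Among genes of the synapse, Syn2, a phosphoprotein that tethers synaptic vesicles, was the only member of 25 vesicle and exocytosis genes with at least 5 CPM. It had 57.2, 58.9 and 53.8 CPM at vector 6 h and 94.9, 92.2 and 99.9 CPM at vector 3 d, and 51.6, 47.5 and 53.2 CPM and 86.3, 83.2 and 81.8 CPM in the α1ACT line. All 4 of its pairs were apart, with differences of 0.75, 0.72, 0.61 and 0.49. Slc18a3, which loads acetylcholine into vesicles, had group means of 13.4 and 21.9 CPM at vector 6 h and 3 d and of 18.8 and 27.3 CPM at α1ACT 24 h and 10 d. Slc18a3 lies inside the Chat gene, whose enzyme makes acetylcholine. Chat, looked up for this reason, had log2 differences of -0.09, -0.03, -0.41 and -0.36. Reads shared by both genes cannot be told apart in these counts. Slc10a4, another vesicle protein, and Nsg2, which sorts receptors in neuronal endosomes, differed by 0.28 to 0.40 and 0.32 to 0.45.

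Other neuronal members were Kif21b, a kinesin motor, Lzts1, a postsynaptic protein, Nmnat2, the axonal enzyme that makes NAD, and Chrm4, a muscarinic acetylcholine receptor. Elmod1, which regulates small GTPases, and Fhod3, a formin that builds actin filaments, were members too. Lzts1 had 5.72, 2.81 and 4.55 CPM at vector 6 h and 11, 7.57 and 9.91 CPM at α1ACT 6 h. Signalling members were Dusp4, a phosphatase that inactivates MAP kinases, Cnksr2, a scaffold of the Ras pathway, the kinase Stk32a, the calcium-binding proteins Hpcal1, S100a5 and S100a10, and Gdf15, a secreted stress-related hormone. S100a5 had 16.2, 16.8 and 17.6 CPM at vector 6 h and 38.1, 32.4 and 36.7 CPM at vector 3 d, and 28.5, 28.0 and 26.6 CPM and 58.6, 56.4 and 58.5 CPM in the α1ACT line. At vector 24 h and 10 d the S100a5 groups overlapped, since its lowest 10 d library, 18.0 CPM, was below its highest 24 h library, 19.8 CPM.

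The sulfur genes Sqrdl and Papss2, whose promoters are printed above, were apart in all 4 pairs. Sqrdl had 6.78, 5.54 and 6.52 CPM at vector 6 h, 13.2, 10.9 and 11.6 CPM at vector 3 d, 2.25, 1.74 and 2.90 CPM at vector 24 h and 5.06, 3.19 and 4.93 CPM at vector 10 d. In the α1ACT line Sqrdl had 5.80, 6.98 and 8.88 CPM at 6 h, 15.3, 11.1 and 17.5 CPM at 3 d, 9.66, 7.77 and 9.86 CPM at 24 h and 16.8, 14.8 and 15.7 CPM at 10 d. It was lowest at vector 24 h and 10 d, and all 6 of those libraries lay below all 6 α1ACT libraries of these times. Papss2 had 3.44, 2.20 and 2.28 CPM at vector 24 h, 6.39, 5.20 and 7.13 CPM at vector 10 d, 10.1, 7.86 and 12.9 CPM at α1ACT 24 h and 15.6, 18.6 and 15.2 CPM at α1ACT 10 d. At 6 h and 3 d its 2 lines overlapped. Other sulfur genes, looked up after the members were known, included Cbs, the partner of Cth in making cysteine, which had 17 counts over all libraries, and Papss1, the second enzyme making activated sulfate, which was at 98.5 to 153 CPM and was not a member. The genes that act after Sqrdl on hydrogen sulfide were not members either. Tst had differences of 0.41, 0.43, 0.08 and 0.29 and so met 0.25 in 3 of the 4 comparisons, Ethe1 had 0.22, 0.10, 0.16 and 0.40, and Mpst, which makes hydrogen sulfide, had 0.20, 0.05, 0.19 and 0.21.

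Other enzymes among the members act on glycolipids (A4galt and B4galt6), heparan sulfate (Sulf2), glucocorticoids (Hsd11b1), pyrimidines (Dpyd), formaldehyde adducts (Adh5), epoxides (Ephx1), phospholipids (Lpcat2 and Tmem86a) and glycogen (Ppp1r3b, a phosphatase subunit). Osbpl5 moves lipids between membranes, and Casp4 is an inflammatory caspase. A4galt, which makes globo-series glycolipids, had 13.6, 16.3 and 12.5 CPM at vector 24 h and 22.7, 20.0 and 20.7 CPM at vector 10 d, and 44.4, 52.6 and 50.6 CPM and 76.4, 64.1 and 85.8 CPM in the α1ACT line. Its 4 differences were nearly equal, 0.56 to 0.61, at levels that spanned 14.1 to 75.4 CPM between groups. Secreted or metal-handling members were Cp, the copper ferroxidase ceruloplasmin, Steap3, a ferrireductase, Pros1, the anticoagulant protein S, and Fam20c, a kinase of secreted proteins. Dbc1, a neuronal protein linked to arrest of the cell cycle, had 75, 106 and 76.6 CPM at vector 24 h and 138, 147 and 129 CPM at vector 10 d, and its groups were apart in all 4 pairs.

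Of the 9 members that act in transcription or the nucleus, Dlx3 and Tbx2 are developmental transcription factors, Creb3l1 is a transcription factor held in the endoplasmic reticulum, Smarcd3 is a chromatin remodelling subunit, Rai2 binds a corepressor, Mgmt repairs DNA and Csdc2 binds RNA, with Nol4 and Mllt11 as the other two. Dlx3 had 9.33, 8.10 and 6.62 CPM at vector 6 h and 38.9, 37.4 and 30.4 CPM at vector 10 d. Mllt11 differed by 0.26 to 0.45. No member belonged to the lists of mitosis, DNA replication, ribosomal protein, respiratory chain, sterol or interferon genes, and 42 of the 65 were in none of the 27 gene lists and 22 families.

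The 4 differences of the rule do not use how the lines differed at a pair of times or how the time pairs differed, since these contrasts combine the groups in other ways. The floor of 5 CPM does use them for members of low level, which can reach it only through the groups where they are high. For 2 members at 6 h and 3 d (Epha4 and Pcdh8), the mean of the libraries outside the higher side of the contrast was under 5 CPM. The same held for 7 members for the lines at 24 h and 10 d (Hcn4, Papss2, Nol4, Kif21b, Cth, Creb3l1 and Pcdh8), and for 7 between the time pairs (Hcn4, Epha4, Nol4, Kif21b, Cth, Creb3l1 and Casp4). It held for 8 in the change of the line difference (Hcn4, Papss2, Epha4, Astn1, Kif21b, Cth, Creb3l1 and Pcdh8). In those contrasts the values of these members are a description, with no p. The contrasts were tested with edgeR's quasi-likelihood test over all 9994 genes with enough counts, all 65 members among them, and Benjamini-Hochberg adjustment (threshold 0.05). Averaged over 6 h and 3 d, 24 members were higher in the α1ACT line, 12 were lower and 29 did not pass, beside 55.3% of all tested genes that passed (27.9% higher, 27.4% lower). Averaged over 24 h and 10 d, 23 were higher, 28 lower and 14 did not pass, beside 68.3% of all tested genes (33.7% higher, 34.6% lower). The members' shares of calls were 55.4% and 78.5%, the first of them near its background, and 2 and 6 of these calls were of members held by the floor as above. Among tested genes of at least 5 CPM, the level required of members, the shares were 58.2% and 71.7%. The members' shares count the held calls too, so the second is not read as above its background. A fold of at least 2 at 24 h and 10 d was seen in 15 of 65 members, 5 of them so held, in 5 of the 26 mirrored genes (19.2%), in 4.58% of genes of at least 5 CPM and in 6.39% of all tested genes. Their median log2 differences were 0.15 and -0.01, where those of all tested genes were 0.0083 and -0.0025.

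At 6 h and 3 d the largest positive differences of the α1ACT line were those of Pcdh8, Cth, Hcn4 and Lzts1. Pcdh8, a protocadherin of synapses, had 1.67, 1.62 and 1.88 CPM at vector 6 h and 4.46, 7.49 and 4.48 CPM at α1ACT 6 h, then 3.52, 3.79 and 3.50 CPM and 12.1, 9.52 and 10.0 CPM at 3 d. All 6 α1ACT libraries lay above all 6 vector libraries, with a log2 difference of 1.57 ± 0.19 (SE). Hcn4 was higher by 1.16 ± 0.14 (adjusted p = 1.87e-07) and Lzts1 by 1.06 ± 0.16 (adjusted p = 4.42e-06). Cth was higher by 1.23 ± 0.39 (adjusted p = 0.00905) at low counts, with 0.352, 0.853 and 0.0988 CPM at vector 6 h and 1.09, 1.43 and 1.21 CPM at α1ACT 6 h. Without the libraries of replicate number 3 the Cth difference was 0.90, with an adjusted p of 0.0778.

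The largest negative differences of the α1ACT line at 6 h and 3 d were those of Rai2, Efnb2, S100a10 and Dusp4. Rai2 had 20.3, 20.7 and 17.8 CPM at vector 6 h and 13.5, 12.5 and 12.1 CPM at α1ACT 6 h, then 23.7, 25.8 and 25.1 CPM and 15.6, 14.4 and 15.7 CPM at 3 d, so the lines did not overlap. Its log2 difference was -0.71 ± 0.07 (adjusted p = 2.17e-09). Efnb2 was at -0.60 ± 0.12 (adjusted p = 0.000164), and S100a10 at -0.57 ± 0.06 (adjusted p = 1.67e-08). Dusp4 was at -0.44 ± 0.13 (adjusted p = 0.00538), and at -0.37 with an adjusted p of 0.0940 without the libraries of replicate number 3.

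At 24 h and 10 d, Hsd11b1, Sqrdl, A4galt and Papss2 had the largest positive differences of the α1ACT line. Gfra2 and Gfra1 were higher in that line too. Hsd11b1, which regenerates active glucocorticoid, had 7.41, 5.51 and 6.49 CPM at vector 24 h and 7.40, 5.87 and 10.5 CPM at vector 10 d. In the α1ACT line it had 22.7, 15.3 and 49.5 CPM at 24 h, the widest spread of its groups, and 37.3, 34.4 and 41.8 CPM at 10 d. The lines were apart, by 2.22 ± 0.19 (SE, log2; adjusted p = 1.63e-10). Sqrdl was higher by 1.91 ± 0.14 (adjusted p = 6.36e-12), A4galt by 1.83 ± 0.09 (adjusted p = 2.09e-15), and Papss2 had a difference of 1.69 ± 0.13. The receptors Gfra2 and Gfra1 were higher by 1.46 ± 0.17 (adjusted p = 2.97e-08) and 0.97 ± 0.10 (adjusted p = 5.24e-09).

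Kif21b, Creb3l1, Tenm2 and Casp4 had the largest negative differences at these times. Kif21b had 18.0, 30.7 and 20.8 CPM at vector 24 h and 35.6, 48.0 and 38.8 CPM at vector 10 d, against 4.16, 1.82 and 5.80 CPM and 6.08, 6.17 and 5.76 CPM in the α1ACT line. Its log2 difference was -2.63 ± 0.18, a 6.18-fold lower level. Creb3l1 had 11.5, 15.8 and 12.8 CPM and 20.9, 31.0 and 23.1 CPM for vector, against 2.66, 1.25 and 3.50 CPM and 4.68, 4.5 and 3.69 CPM (difference -2.45 ± 0.16). Tenm2 had 27.4, 30.1 and 24.0 CPM and 34.7, 42.8 and 33.9 CPM for vector, against 6.02, 6.43 and 6.6 CPM and 9.86, 6.91 and 9.10 CPM (difference -2.09 ± 0.11, adjusted p = 6.80e-15). At 6 h and 3 d Tenm2 differed between the lines by 0.11 ± 0.09 (adjusted p = 0.316). Casp4 had 68.4, 105 and 82.3 CPM and 137, 112 and 123 CPM for vector, against 26.5, 12.1 and 24.8 CPM and 34.0, 35.3 and 21.9 CPM (difference -2.0 ± 0.13, adjusted p = 8.27e-13). In each of these 4 genes the lines did not overlap.

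Between the 2 pairs of times, 15 members were called the same way for the line difference (23.1%, beside 20.1% of all tested genes) and 13 opposite ways (20.0%, beside 18.6%). Of the 24 members higher in the α1ACT line at 6 h and 3 d, 10 were also higher at 24 h and 10 d, 9 were lower and 5 did not pass. Of the 12 lower ones, 5 were lower again, 4 were higher and 3 did not pass, and 6 members passed in neither. These counts include members held by the floor as above in a line contrast, whose calls are a description. Among them, Pcdh8, Hcn4 and Cth went from higher to lower. The change of the line difference is the difference between the 2 line contrasts and adds no further libraries to them. Tested in the same model, it passed for 48 members, 8 of them held by the floor, with 21 upward and 27 downward, beside 64.3% of all tested genes (30.7% upward, 33.7% downward). With those 8 counted, this was 73.8% of the members. It is therefore not compared with the 68.0% of tested genes of at least 5 CPM that passed. Pcdh8, at 5.92, 9.64 and 4.90 CPM at vector 24 h and 3.54, 2.11 and 1.75 CPM at α1ACT 24 h, had a value of -3.24 ± 0.26 (SE, log2) for this, Hcn4 -2.02 ± 0.18 and Cth -2.88 ± 0.41. A4galt changed upward by 1.88 ± 0.12 (adjusted p = 1.67e-12), from -0.05 to 1.83.

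At the single times, members higher and lower in the α1ACT line numbered 14 and 8 at 6 h (41.6% of all tested genes passed), 19 and 20 at 24 h (55.5%), 17 and 7 at 3 d (39.4%) and 22 and 27 at 10 d (58.9%). These counts share libraries with the comparisons that chose the members. They are taken over all members, so those held by the floor in the contrasts above are not left out. By role, against 33.7% higher and 34.6% lower among all tested genes in the same contrast, 6 of the 13 receptor, ligand and signalling members were higher and 5 lower in the α1ACT line at 24 h and 10 d. Of the 15 enzymes and lipid-handling members, 8 were higher and 3 lower. Of the 13 adhesion and surface members, 1, Magi1, was higher and 7 were lower. Papss2 and Cth among these enzymes and Pcdh8 among the adhesion members were held by the floor as above, so their calls are a description. Low values were not particular to the members. Of 44 tested protocadherin and cadherin genes 27 were lower and 6 higher, and of 36 axon guidance and adhesion genes 23 were lower and 5 higher. The grouping by role was made after the members were known.

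Between the time pairs, 24 h and 10 d against 6 h and 3 d over both lines, 24 members were higher and 23 lower, beside 71.0% of all tested genes that passed (34.9% higher, 36.1% lower). The share of members that passed was 72.3%, and that of tested genes of at least 5 CPM was 74.5%. Of the members' calls, 7 were of members held by the floor as above. A fold of at least 2 was seen in 10 of 65 members, 5 of them so held, in 4 of the 26 mirrored genes (15.4%), in 2.13% of genes of at least 5 CPM and in 3.29% of tested genes. Casp4, Creb3l1, Kif21b and Cth had the largest positive differences, and each reached 5 CPM only through 24 h and 10 d, so these are described with no p. Casp4 had 3.79, 2.56 and 3.36 CPM at vector 6 h and 2.44, 1.35 and 2.67 CPM at α1ACT 6 h, far below its 24 h values above, and differed by 4.11 ± 0.14 on the log2 scale, or 17.3-fold. Creb3l1 was at 0.336 to 1.23 CPM in all 12 libraries of 6 h and 3 d and differed by 3.76 ± 0.18. Cth, at 11.2, 19 and 13.7 CPM at vector 24 h and 23.1, 21.7 and 25 CPM at vector 10 d, differed by 3.44 ± 0.18, and Kif21b by 3.73 ± 0.20. The time pairs did not overlap for Casp4, Creb3l1 and Cth.

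**Figure D3:**
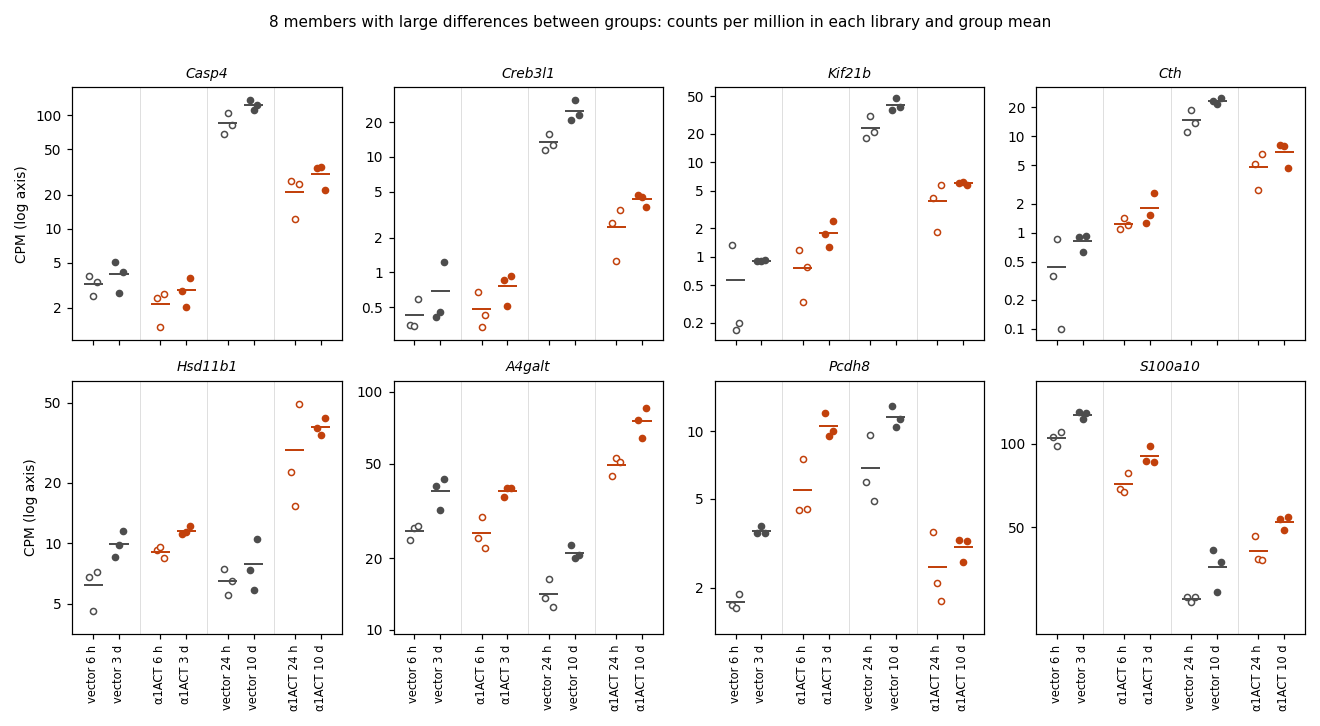
CPM (log axis) in each library of 8 members chosen after their values were seen; points are libraries, open at 6 h and 24 h and filled at 3 d and 10 d, grey for vector and orange for α1ACT, and bars are group means. Casp4 has a group mean of 2.15 CPM at α1ACT 6 h and 124 CPM at vector 10 d, while the step within each pair that made it a member is 0.26 to 0.54 on the log2 scale.

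The largest falls between the time pairs were those of S100a10, Chrm4, Osbpl5 and Rai2. S100a10, a partner of annexin at the membrane, had 106, 98.5 and 111 CPM at vector 6 h, 28.1, 26.9 and 28.1 CPM at vector 24 h, 68.7, 67.2 and 78.4 CPM at α1ACT 6 h and 46.4, 38.6 and 38.3 CPM at α1ACT 24 h. Its log2 difference was -1.32 ± 0.05 (adjusted p = 1.45e-18), with no overlap. Chrm4 was at -0.68 ± 0.06 (adjusted p = 1.49e-10), Osbpl5 at -0.65 ± 0.04 (adjusted p = 1.17e-13) and Rai2 at -0.62 ± 0.05 (adjusted p = 2.99e-11). By the file names, this time contrast is 3 d and 10 d against 6 h and 24 h over both lines, and the pooled line contrasts are 24 h against 6 h and 10 d against 3 d.

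Near the edge of the rule, the last 3 members were Mllt11, Rai2 and Tenm2, with smallest differences of 0.256, 0.252 and 0.251. Cd59, Hdac11 and Rnd3 were the next genes outside, at 0.249, 0.247 and 0.245. Mboat2, Ctnnd2 and Lrrn3 met all 4 differences but had means of 4.94, 4.54 and 4.42 CPM. Among neighbours on the genome, Chrm4 and Creb3l1 have 2 protein-coding genes between them, and Ppp1r3b and Dusp4 have 1. The span of 7 members overlaps that of another counted gene, with a partner of at least 5 CPM for 3 of them: Cp with Hps3, Slc18a3 with Chat and Smarcd3 with Chpf2. The median span was 49.9 kb in the members, 50.4 kb in the mirrored genes with a value and 23.2 kb in genes of at least 5 CPM.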

How the data were processed

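Total RNA of 24 PC12 libraries was sequenced after removal of ribosomal RNA with a stranded kit, per the labels' protocols. The authors deposited 1 table of whole-number read counts per gene for each library, with no normalization. The submitters' processing notes name FastQC 0.11.2, TopHat2 2.0.10, Picard 1.117, HTSeq 0.5.4p5, edgeR and the build rn5; no annotation, strand setting or duplicate handling is given in the sources used here. Groups came from the labels. The 5 summary lines were left out. CPM were taken over gene rows.

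Tests used edgeR 4.0.16 (R 4.3.3) on the counts: TMM factors (0.981 to 1.02), filterByExpr (minimum count 10, total 15), 1 coefficient per group over all 24 libraries (16 residual degrees of freedom), a quasi-likelihood F-test and Benjamini-Hochberg adjustment over 9994 genes. The fit was tested on simulated data. Replicates are labelled biological, and nothing more says that cultures were separate, so p-values rest on the spread among these libraries, which may be technical. Counting limits cover counting error only. Alternatives were other scalings and filters, DESeq2 1.42.0, fewer libraries, a replicate block and other member rules.

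Members, lists and roles were chosen with earlier results of these data known. Genes named are the 12 members with the largest smallest difference, the 4 largest rises and falls per tested contrast, up to 3 members per list, and those next to the threshold; others are named to account for all members or as context and were chosen after values were seen. Promoters and neighbours come from RefSeq tables of GRCr8, so no rn5 position is given.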

Additional observations from a re-analysis of the deposited data

Results flagged for a closer look

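For 31 of the 38 members named by rule, the difference between the α1ACT and vector lines at 24 h and 10 d departed from that at 6 h and 3 d by edgeR's test of the difference itself (adjusted p under 0.05 over all tested genes, where 64.3% of them passed). Some of the 38 were named because their change in this same test, or a line difference within it, was among the largest. The count of 31 therefore cannot be set against that share. The log2 changes of the line difference were negative for Hcn4 (-2.02), Dbc1 (-1.11), Stk32a (-0.77), Epha4 (-0.88), Astn1 (-1.59), Nol4 (-0.74), Lzts1 (-0.83), L1cam (-0.49), Tmem86a (-0.33), Slc10a4 (-1.16), Gdf15 (-1.66), Kif21b (-3.28), Cth (-2.88), Creb3l1 (-2.60), Casp4 (-1.42), Pcdh8 (-3.24) and Tenm2 (-2.20). They were positive for Gfra2 (1.34), Sqrdl (1.70), Papss2 (1.61), Pmp22 (0.48), A4galt (1.88), Gfra1 (0.44), Slc18a3 (0.62), Fgfr3 (0.34), Nsg2 (1.5), Chrm4 (0.41), Osbpl5 (0.43), S100a10 (1.12), Hsd11b1 (1.87) and Rai2 (0.46). Of these, Hcn4, Papss2, Epha4, Astn1, Kif21b, Cth, Creb3l1 and Pcdh8 had reached the floor of 5 CPM only through the higher side of this contrast, so their values are a description. Without the libraries of replicate number 3, Stk32a stood at -0.70 (edgeR adjusted p = 0.0639) and Lzts1 at -0.72 (adjusted p = 0.0527), and without those of number 1 Gfra1 stood at 0.36 (adjusted p = 0.127). The Tmem86a call was lost under DESeq2 (-0.32, adjusted p = 0.0615), with 9 of the single libraries left out (adjusted p 0.0534 to 0.0999), and without the libraries of number 1 (-0.20, adjusted p = 0.362) or number 3 (-0.44, adjusted p = 0.0562).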

How the results depend on the processing

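The 65 members became 15 with a threshold of 0.5 on each difference. The other settings of the rule gave 97 with a threshold of 0.2, 60 and 71 with pseudocounts of 1 and 0.1, 85 and 47 with floors of 2 and 10 CPM, and 65 (64 shared) with TMM-scaled CPM. Leaving out 1 library gave 55 to 73 members, and 30 members were kept whichever library was left out. Without all libraries of a replicate number, a setting chosen after seeing the data, there were 50 to 68. The counts of called members at 1 time moved by more than 1.5 times only when libraries were left out: lower at 6 h 8 (4 to 8), higher at 3 d 17 (10 to 23) and lower at 3 d 7 (2 to 9). The 11 members higher at 3 d without vector 3 d replicate 2 were the fewest with 1 library out. In the 4 contrasts that the differences of the rule do not use, counts of called members moved by no more than 1.5 times under every alternative run. Of the values of named genes under the alternatives, 2589 kept their side of the threshold and, where they passed, their direction. A further 38 lost the call, 27 gained one, and 0 that passed in either setting reversed. Direction was not followed for values that passed in neither. Same-numbered libraries deviated together weakly (r -0.14 to 0.43, median 0.11), and libraries of other numbers had r -0.41 to 0.29 (median -0.07). The 3 deviations of a group sum to 0, so the ranges are tied and the latter is not a separate baseline. A library was best correlated with its own number, out of 3, in 107 of 168 comparisons. The main tests did not take the numbers as pairs, and whether a number marks a shared batch was not tested. With the replicate block, members higher and lower were 27 and 12 for the lines at 6 h and 3 d, 26 and 28 at 24 h and 10 d, 26 and 23 for the time pairs and 22 and 30 for the change of the line difference. Depth limits Cth, Kif21b and Creb3l1, whose lowest libraries at 6 h were at 0.0988, 0.171 and 0.336 CPM, where 3 counts stood at 0.207 to 0.346 CPM.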
